A study of Mus musculus with 33 samples.

Results

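The 10 genes described here carry signals between the oocyte and the granulosa cells that surround it in the ovarian follicle. They were taken by symbol: Gdf9, Bmp15, Kit, Kitl, Nppc, Npr2, Gja1, Gja4, Pde3a and Gpr3 each matched 1 Ensembl identifier, so the set holds 10 of the 54347 gene identifiers counted. Their levels were measured by sequencing of polyadenylated RNA in 33 libraries of whole mouse ovary, in 9 groups and 3 experiments, with the aim of finding transcripts that depend on follicle-stimulating hormone (FSH) or on the stage of the estrous cycle. Experiment 1 had 3 libraries each of ovaries with the genotype label WT, Fshb(+/-) (Het below) or Fshb(-/-) (KO below). Experiment 2 set 4 Fshb(-/-) libraries against 4 with the label Fshb(-/-) HFSHB, a name for an FSHB transgene on the mutant background (rescue below), so that every ovary of experiment 2 lacked the mouse gene by its label. Experiment 3 had 4 libraries per stage for DE, PE and E, with the genotype label WT, and 4 with KO (anestrus) as the stage, which also carry WT as the genotype. DE, PE and E usually stand for diestrus, proestrus and estrus, and the labels do not spell them out. The sources used here give no age, no promoter for the transgene and no meaning for NS in the titles of experiments 1 and 2. The labels do not say that the libraries of a group came from separate animals, so the spread behind each p-value may be technical.

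In a follicle, the oocyte secretes GDF9 and BMP15, ligands of the TGF-beta family that act on granulosa cells, and carries KIT, the receptor for the KIT ligand (encoded by Kitl) that granulosa cells make. Granulosa cells also make C-type natriuretic peptide (from Nppc), whose receptor NPR2 produces cyclic GMP. This cyclic GMP passes to the oocyte through gap junctions of connexins such as GJA1 and GJA4 and inhibits the phosphodiesterase PDE3A. The oocyte's cyclic AMP, which the receptor GPR3 helps to make, then stays high and holds meiosis in arrest.

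Depth differed between experiments: the smallest and largest total counts were 13.6 M and 16.9 M (experiment 1), 19.6 M and 23.7 M (experiment 2), and 10.1 M and 15.9 M (experiment 3). Fshb, the targeted gene, did not follow its labels: in experiment 1 the libraries labelled WT held 0 to 1 counts of it, Het 43 to 106 and those labelled Fshb(-/-) 68 to 82. In experiment 2 the KO libraries held 119 to 184 and the rescue 221 to 431, and in experiment 3 the libraries labelled KO held 90 to 114, DE 60 to 198, PE 0 to 51 and E 0 to 170. Groups are therefore called by their labels, and every direction below rests on those labels. All 30 oocyte markers and all 16 granulosa markers on the lists used were detected in every group. Oviduct epithelium markers, 12 genes of the tube that adjoins the ovary, set libraries of all 3 experiments apart. In experiment 3 their summed level was 3260 to 5776 counts per M (CPM) in the 4 PE libraries, 3435 to 7452 in DE replicates 1, 2 and 4 and 4786 in E replicate 3. It was 20.9 in DE replicate 3, 10.7 to 17.9 in the other E libraries and 32.2 to 70.7 in the 4 libraries labelled KO. DE replicate 3 and E replicate 3 thus each differed from the rest of their stage, and where a call for 1 of the 10 genes at DE or E changes without them both values are given. In experiment 2 the oviduct sum was 27.5 and 32.7 CPM in KO replicates 1 and 2 and 367 and 162 in KO replicates 3 and 4. It was 15.8 to 543 in the rescue, with a median of 18.6. Luteal markers, 8 genes, set WT replicate 3 of experiment 1 apart, at 630 CPM with 4431 and 5573 in the other WT libraries. In the rescue they summed to 1924 and 2634 CPM in replicates 1 and 2 and to 5033 and 6234 in replicates 3 and 4. By oviduct markers Het replicate 3 of experiment 1 stood apart, at 1361 CPM against 15.4 to 63.3 in the other 8 libraries. It also held 5284 CPM of smooth muscle markers, with 1961 and 2120 in the other Het libraries, and 102 CPM of mast cell markers, with 18.9 and 31.8. Without it the 4 genes of the set called between KO and Het were called again, with log2 fold changes of 1.16 for Gdf9, 1.27 for Bmp15, 0.74 for Npr2 and 1.42 for Gpr3 (adjusted p = 0.0082, 0.0026, 0.029 and 0.017, edgeR), and 0 of the 10 were called between Het and WT with or without it.

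Promoter windows, the 250 bases before the annotated start of the gene, were read from RefSeq on GRCm38.p6 for 8 of the 10 genes. Gdf9 and Pde3a have no entry. The windows of Bmp15 and Nppc are shown because the oocyte transcript Bmp15 and the granulosa transcript Nppc both passed the test, in opposite directions, for KO against WT, rescue against KO, and DE and PE against KO. Between Het and WT both were lower in Het, and neither passed. The search was for the E-box CANNTG, bound by factors such as FIGLA, the NOBOX elements TAATTG and TAATTA, the cyclic AMP response element TGACGTCA and the NR5A core AAGGTCA, on both strands, and matches are in capitals.
Bmp15, chrX:6320725-6320974, minus strand: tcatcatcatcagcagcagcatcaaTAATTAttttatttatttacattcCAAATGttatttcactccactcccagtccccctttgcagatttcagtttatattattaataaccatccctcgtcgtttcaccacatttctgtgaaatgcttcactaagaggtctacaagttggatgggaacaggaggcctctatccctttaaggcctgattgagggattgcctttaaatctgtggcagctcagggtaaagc
Nppc, chr1:86670574-86670823, minus strand: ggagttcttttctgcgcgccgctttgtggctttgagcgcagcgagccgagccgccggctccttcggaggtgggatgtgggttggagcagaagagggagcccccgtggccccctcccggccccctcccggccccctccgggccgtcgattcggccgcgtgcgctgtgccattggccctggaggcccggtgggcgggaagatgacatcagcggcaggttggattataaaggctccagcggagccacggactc
The Bmp15 window was 40.4% G and C and held 1 TAATTA, which overlapped no other match, and 1 E-box. The Nppc window was 69.2% G and C and held none of these letters. Among the other genes with a window, Npr2 and Gja1 held 1 E-box each and no other match was found. Of 32536 windows of the same length, 66.2% held an E-box, 4.84% TAATTA, 7.18% TAATTG, 1.56% TGACGTCA and 4.09% AAGGTCA.

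Per kilobase of exon and averaged over the 9 groups, Gja1 was the most abundant of the 10 at 190.2 CPM per kb. It was followed by Gdf9 at 47.4, Kitl at 36.5, Npr2 at 26.3, Bmp15 at 16.8, Gja4 at 12.7, Kit at 10.7, Nppc at 6.32, Pde3a at 2.90 and Gpr3 at 0.555. The spread of group means was widest for Nppc, whose highest group mean was 15.4 times its lowest, and narrowest for Gja4 at 1.69 times. Bmp15 spanned 4.01 times, Gpr3 3.72, Gdf9 3.21, Kit 3.16 and Kitl 3.11, although levels were scaled within each experiment and differences between experiments in these spans were not tested. Raw counts were 6 to 64 per library for Gpr3 and 10 to 380 for Nppc, so counting error weighs most on these genes. For the other genes the lowest count in a library was 161. Npr2, Pde3a and Gpr3 share exonic bases with a gene on the opposite strand (Gm12473, Gm28523 and Cd164l2), and their values are uncertain where the counting did not use strand.

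**Figure D1:**
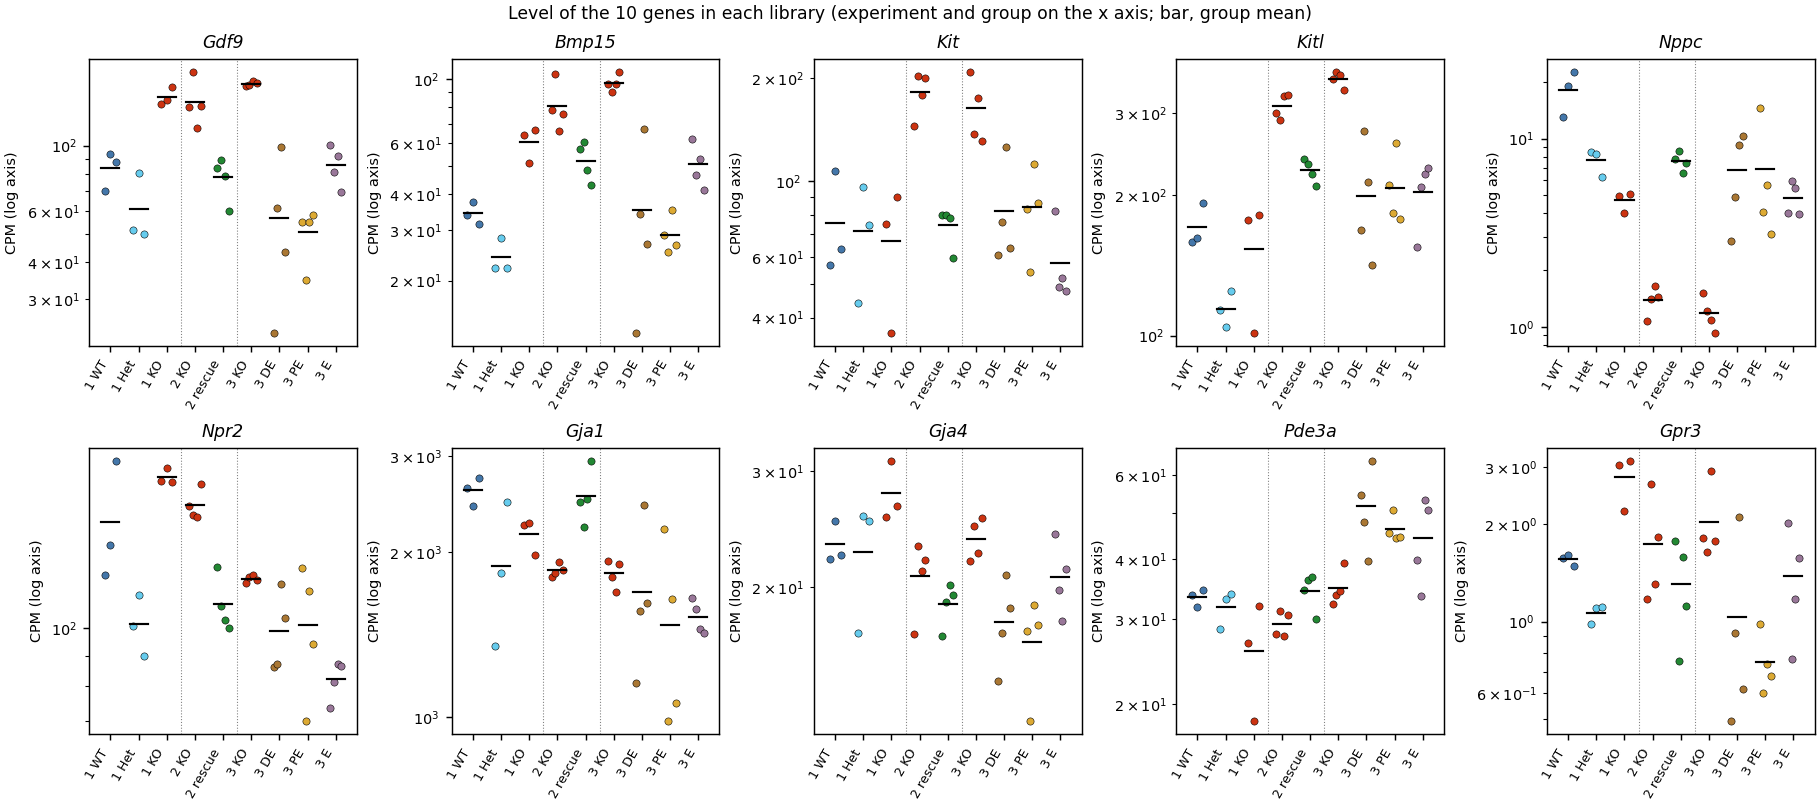
Level of each of the 10 genes (CPM, log axis) in each of the 33 libraries, by experiment and group, with a bar at the group mean. Nppc is lowest in the libraries labelled KO of all 3 experiments, where Gdf9 and Bmp15 are highest.

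Gdf9 (ENSMUSG00000018238.6, chromosome 11, 53431023 to 53437904, plus strand, GRCm38) encodes the growth factor that the oocyte needs to drive follicles past the primary stage. In experiment 1 it stood at 70.2, 93.8 and 88.3 CPM in the libraries labelled WT, at 51.8, 80.5 and 49.96 in Het and at 139, 143 and 159 in KO. All KO values lay above all WT values, and WT and Het overlapped. The mean was 147 ± 10.6 CPM in KO against 84.1 ± 12.3 in WT (SD, n = 3 each). This gave 0.81 ± 0.19 as the log2 fold change with its SE (adjusted p = 0.036, edgeR quasi-likelihood test, as for all tests below unless named). This call was lost when any 1 of the 6 libraries was left out, with adjusted p from 0.068 to 0.12. Against Het the log2 fold change was 1.27 ± 0.19 (adjusted p = 0.0033).

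In experiment 2 Gdf9 was at 135, 178, 115 and 137 CPM in KO and at 84.0, 89.0, 79.1 and 59.7 in the rescue. The groups did not overlap, and the rescue was lower with a log2 fold change of -0.86 ± 0.16 (adjusted p = 0.0052). In experiment 3 the libraries labelled KO were tightly grouped at 160, 161, 165 and 164 CPM. DE libraries stood at 23.1, 61.4, 98.7 and 43.3, PE libraries at 55.0, 34.8, 55.0 and 58.04, and E libraries at 100.5, 81.2, 92.1 and 69.6. Every cycling-stage library lay below every library labelled KO. The log2 fold change was -1.52 ± 0.31 at DE (adjusted p = 0.0046), -1.68 ± 0.31 at PE (adjusted p = 0.002) and -0.92 ± 0.31 at E (adjusted p = 0.052). The difference at E did not pass the threshold in edgeR and passed it in DESeq2 (adjusted p = 0.017). In edgeR it did not pass without E replicate 3 (adjusted p = 0.082) and passed without both DE replicate 3 and E replicate 3 (adjusted p = 0.025), with a log2 fold change of -0.92 in each. In whole ovary, fewer cells of a type, less RNA per cell and more RNA from other cells cannot be told apart. This holds here and for every gene below. Luteal markers summed to 341 to 534 CPM in KO of experiment 1, 630 to 5573 in WT and 1868 to 6511 in Het. In experiment 2 their sum was 460 to 543 in KO and 1924 to 6234 in the rescue. In experiment 3 it was 402 to 543 in the libraries labelled KO. DE libraries held 672 to 2620, PE 890 to 1745 and E 993 to 5218. Its part in these values was not tested.

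Bmp15 (ENSMUSG00000023279.7, chromosome X, 6314107 to 6320721, minus strand) encodes the partner of GDF9. It was at 33.7, 37.3 and 31.5 CPM in WT, 22.2, 28.2 and 22.1 in Het, and 63.9, 51.1 and 66.3 in KO of experiment 1. The order was Het, WT, KO with no overlap between any pair of groups, while the step from Het to WT did not pass the test (log2 fold change Het against WT -0.50 ± 0.14, adjusted p = 0.29). KO exceeded WT by a log2 fold change of 0.82 ± 0.14 (adjusted p = 0.011), a call lost without KO replicate 3 (adjusted p = 0.051), and exceeded Het by 1.32 ± 0.14 (adjusted p = 0.00079). In experiment 2 the KO libraries held 77.9, 104, 65.97 and 75.6 CPM and the rescue libraries 56.9, 60.3, 48.2 and 42.8. The rescue fell below KO without overlap (log2 fold change -0.63 ± 0.16, adjusted p = 0.016), and the call was lost without rescue replicate 3 (adjusted p = 0.053).

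In experiment 3 Bmp15 was at 96.2, 89.8, 95.9 and 105 CPM in the libraries labelled KO. Libraries of DE held 13.2, 33.9, 66.9 and 26.9, those of PE 28.7, 25.1, 35.1 and 26.6, and those of E 61.8, 46.5, 52.7 and 41.2. All 12 cycling-stage libraries lay below those labelled KO, and within the DE group replicate 3 stood above the other DE libraries. The fall passed the test at DE (log2 fold change -1.46 ± 0.33, adjusted p = 0.0079) and at PE (-1.74 ± 0.34, adjusted p = 0.0024), and at E it was -0.94 ± 0.33 (adjusted p = 0.062; DESeq2 0.024). At E it was -0.92 both without E replicate 3 (adjusted p = 0.10) and without DE replicate 3 and E replicate 3, where it passed (adjusted p = 0.017).

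Other oocyte transcripts differed in the same direction as these growth factors. The 30 oocyte markers, none of which is Gdf9 or Bmp15, included 20 higher and 0 lower in KO than WT in experiment 1, with a median log2 fold change of 0.91 against -0.01 over all genes tested, of which 4.53% were called higher and 3.34% lower. In experiment 2, 29 were lower in the rescue (median -0.94), beside 16.2% of all genes. In experiment 3, 29, 30 and 11 were lower at DE, PE and E (medians -1.56, -1.69 and -0.96), beside 11.6%, 16.3% and 8.98% of all genes. This list, those below and the 10 genes were chosen with earlier results of these data known. Their counts beside the shares of all genes are therefore a description and not a test. The summed level of the list was 594 to 714 CPM in WT, 413 to 625 in Het, 1116 to 1400 in KO of experiment 1, and 1424 to 1729 in the libraries labelled KO of experiment 3 against 222 to 918 over the 12 cycling-stage libraries. When Gdf9 was set against the mean log2 level of these markers in each library, the difference between groups lay between -0.09 and 0.08 on the log2 scale in all 10 comparisons. The ratio of Gdf9 to Bmp15 differed most between rescue and KO, by -0.23 on the log2 scale. It was 0.475 to 0.710 in the rescue and 0.780 to 0.852 in KO, without overlap (exact permutation test, two-sided, p = 0.029, adjusted p = 0.12).

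**Figure D2:**
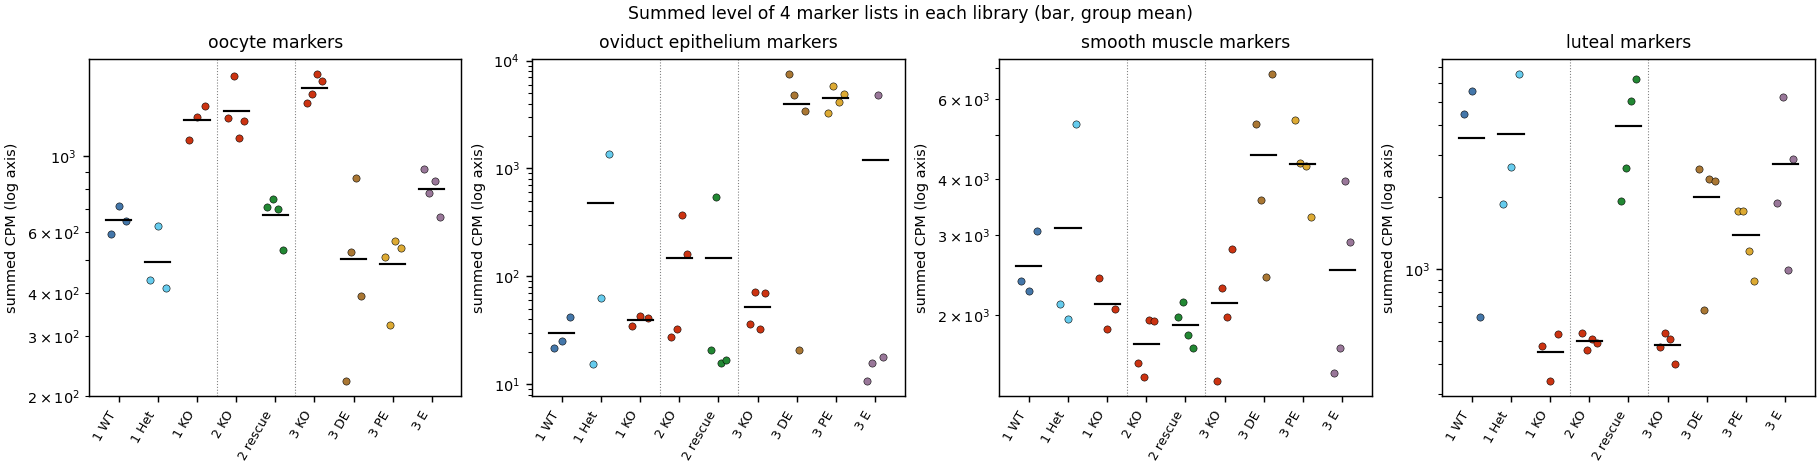
Summed level (CPM, log axis) of the oocyte, oviduct epithelium, smooth muscle and luteal marker lists in each library, with a bar at the group mean. Oocyte marker sums are highest in the libraries labelled KO (1116 to 1729 CPM), and oviduct sums are at 3260 CPM or above in 8 libraries of experiment 3 and at 1361 or below elsewhere.

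A list of 18 genes around GDF9 and BMP15 held receptors, SMAD proteins, the protease Furin and the extracellular factors Bmp6, Fgf8 and Fst. In experiment 1, 1 of 18 was higher and 2 were lower in KO than WT (list median -0.18), beside 4.53% and 3.34% of all genes. Tgfbr1, a type 1 receptor used by GDF9, fell with a log2 fold change of -1.15 ± 0.20 (adjusted p = 0.012), and Fst, an extracellular antagonist of activins, fell by 0.88 (adjusted p = 0.049). Acvr1, another type 1 receptor, rose by 0.55 ± 0.12 (adjusted p = 0.03). In experiment 2, 6 of 17 were higher and 2 lower in the rescue (15.8% and 16.2% of all genes), with Tgfbr1 up by 0.997 ± 0.16 (adjusted p = 0.0027) and Fst up by 0.57 ± 0.09 (adjusted p = 0.0013). In experiment 3, DE had 2 of 17 higher and 4 lower (13.5% and 11.6% of all genes), PE 0 and 6 (17.5% and 16.3%), and E 1 and 2 (8.98% each). Bmpr1b, a type 1 receptor for BMP ligands, was lower at all 3 stages, with log2 fold changes of -0.69, -0.89 and -0.93 (adjusted p = 0.02, 0.0044 and 0.0048). These 3 comparisons share the libraries labelled KO.

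Kit (chromosome 5, 75574916 to 75656722, plus strand) encodes the receptor tyrosine kinase of oocytes, theca and mast cells. In experiment 1 it showed no difference beyond the spread: 56.8, 107 and 63.2 CPM in WT, 44.2, 96.2 and 74.7 in Het, and 75.2, 36.1 and 89.9 in KO. The log2 fold change of KO against WT was -0.17 ± 0.41 (adjusted p = 0.84). In experiment 2 it was at 146, 204, 179 and 200.5 CPM in KO and at 79.8, 79.7, 78.4 and 59.8 in the rescue. The groups were far apart, with the rescue lower by a log2 fold change of -1.29 ± 0.13 (adjusted p = 0.00022).

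In experiment 3 Kit stood at 209, 138, 176 and 132 CPM in the libraries labelled KO. Those of DE held 60.997, 76.0, 126 and 64.1, the PE libraries 82.8, 54.2, 112 and 86.5, and the E libraries 82.1, 49.0, 52.1 and 47.7. No cycling-stage library reached the lowest library labelled KO. Log2 fold changes were -0.998 ± 0.27 at DE (adjusted p = 0.018), -0.96 ± 0.27 at PE (adjusted p = 0.016) and -1.50 ± 0.27 at E (adjusted p = 0.0022). The DE call was lost without DE replicate 1 (0.065), DE replicate 4 (0.054) or KO replicate 1 (0.069), and the PE call without KO replicate 1 (0.063). Without E replicate 3 the log2 fold change at E was -1.42 (adjusted p = 0.0067).

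Kit was also set against the oocyte markers. In experiment 1 the difference in its log2 ratio to them was -1.06 in KO minus WT, -1.37 in KO minus Het and 0.31 in Het minus WT. It was -0.42 in rescue minus KO, and 0.70, 0.68 and -0.54 in DE, PE and E minus KO. Between stages it was -0.03 in PE minus DE, -1.22 in E minus PE and 1.25 in DE minus E. The ratio ran from 1.64 to 2.10 in the 4 E libraries and from 2.90 to 3.26 in the 4 PE libraries, without overlap (exact permutation test, two-sided, p = 0.029, the smallest that 4 against 4 can give). After Benjamini-Hochberg adjustment over all 100 ratio tests it was 0.12, and 24 of the 100 had p under 0.05 and 0 after adjustment. Passing was hardly possible: 4 against 4 needed most of the 100 tests at their smallest p, and 3 against 3 could not pass. The adjusted ratio values therefore decide nothing, here or below. Mast cells, which also carry KIT, differed between libraries. The summed level of 10 mast cell markers was 39.5 to 51.7 CPM in KO and 18.7 to 30.3 in the rescue, 59.7 to 99.1 in KO and 21.9 to 22.6 in WT of experiment 1, where Tpsab1 and Mrgprb2 were at 0 in all WT libraries. In experiment 3 it was 44.7 to 75.7 in the libraries labelled KO, 27.9 to 268 at DE, 131 to 183 at PE and 28.7 to 145 at E. Its part in the Kit values was not tested.

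Kitl (chromosome 10, 100015630 to 100100416, plus strand) encodes the ligand. Its levels were 159, 162 and 192 CPM in WT, 113, 104 and 125 in Het and 177, 102 and 182 in KO of experiment 1. Het lay below WT without overlap (log2 fold change -0.58 ± 0.20, adjusted p = 0.39), and KO overlapped WT, and overlapped Het through KO replicate 2 alone. That library was also the lowest KO library for Kit and Pde3a. In experiment 2 Kitl was at 299.9, 289, 326 and 328 CPM in KO and at 239, 233, 223 and 209 in the rescue, a log2 fold change of -0.46 ± 0.06 (adjusted p = 0.00059). In experiment 3 it was at 355, 367, 362 and 336 CPM in the libraries labelled KO. DE libraries followed at 168, 275, 213 and 142, PE libraries at 210.2, 183, 258 and 178 and E libraries at 155, 208, 222 and 229. All 12 lay below the libraries labelled KO, with log2 fold changes of -0.83 ± 0.18, -0.78 ± 0.18 and -0.80 ± 0.18 (adjusted p = 0.0062, 0.0066 and 0.0078). Without E replicate 3 the last was -0.81 (adjusted p = 0.015).

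Kit and Kitl had the largest estimated differences in response between experiments, and neither passed in edgeR. The test of the difference itself, rescue minus KO in experiment 2 against WT minus KO in experiment 1, gave -1.47 ± 0.43 for Kit (adjusted p = 0.36) and -0.62 ± 0.21 for Kitl (adjusted p = 0.52). For the mean of DE, PE and E minus KO in experiment 3 against WT minus KO in experiment 1 it gave -1.31 ± 0.45 for Kit (adjusted p = 0.28) and -0.94 ± 0.26 for Kitl (adjusted p = 0.26). In edgeR 0 of the 10 genes passed in either test, beside 0.153% and 0.0109% of all genes. In each test 2 had an unadjusted p under 0.05, for which the share of all genes is not given here. DESeq2 called 0 and 1 of them, the 1 being Kitl in the second test (adjusted p = 0.047). Experiment and the way its libraries were made cannot be told apart here.

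Genes that carry the signal inside the oocyte, from PI3K to the transcription factor FOXO3, numbered 16. In experiment 1, 0 of them passed the edgeR test between KO and WT, beside 7.87% of all genes, and the smallest adjusted p was 0.056 for Pik3r1, a regulatory subunit of PI3K (log2 fold change 0.97 ± 0.26). In experiment 2, 2 were higher and 2 lower in the rescue, beside 15.8% and 16.2% of all genes. In experiment 3, 7, 9 and 7 were lower at DE, PE and E, beside 11.6%, 16.3% and 8.98% of all genes, and 2, 0 and 0 were higher, beside 13.5%, 17.5% and 8.98%. Foxo3, which keeps primordial follicles dormant, was lower by -0.31 ± 0.07 at both DE and E (adjusted p = 0.006 and 0.0067). The list medians were -0.25, -0.24 and -0.17 against 0.01 over all genes in each comparison.

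**Figure D3:**
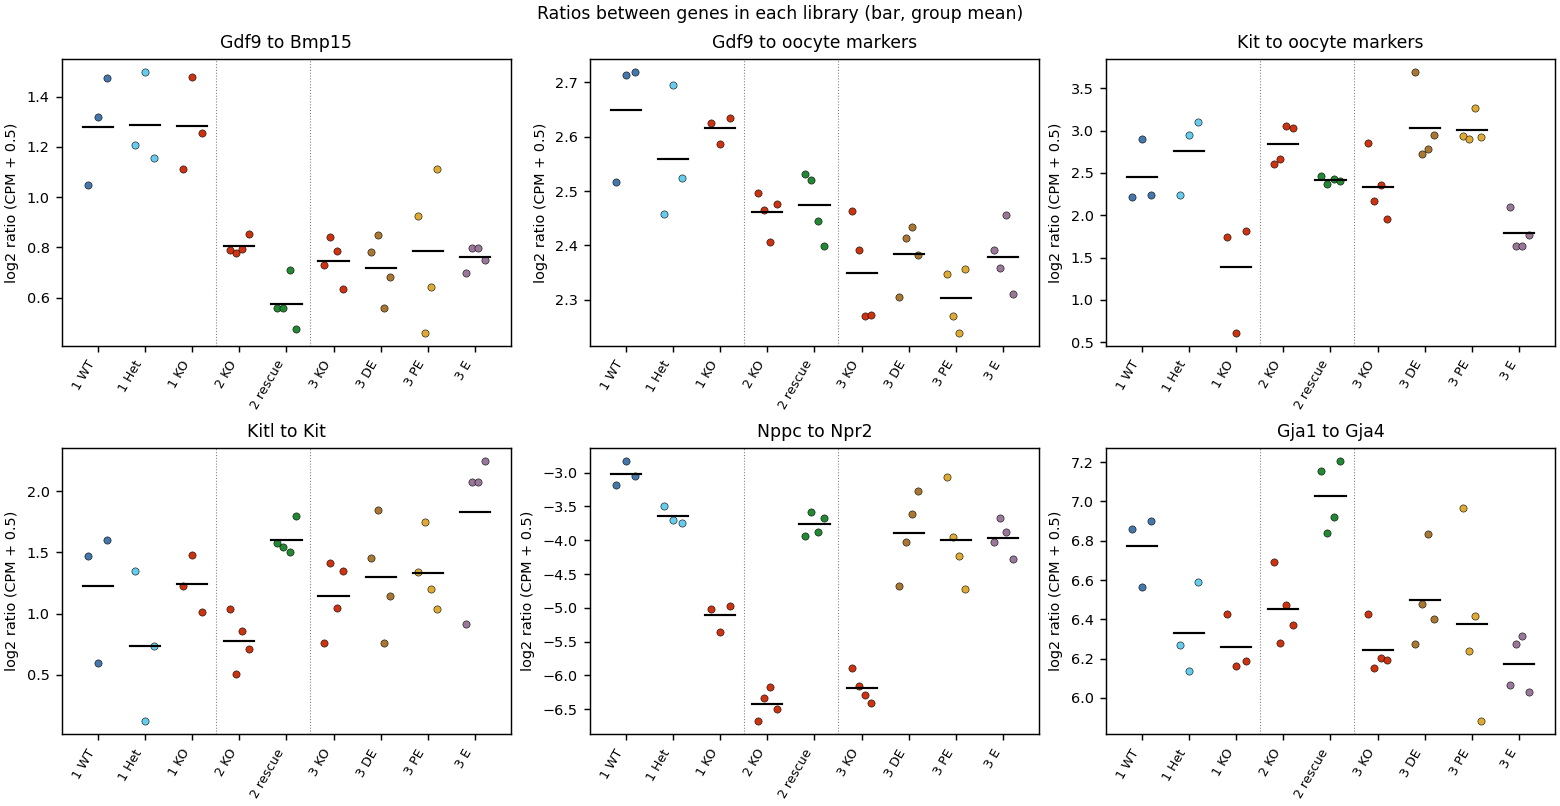
Log2 ratios between genes in each library (levels in CPM plus 0.5), with a bar at the group mean. Gdf9 to oocyte markers differs by at most 0.09 in size between the groups compared, whereas Nppc to Npr2 is about -6 in the libraries labelled KO of experiments 2 and 3 and about -4 in the rescue and cycling stages.

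Nppc (chromosome 1, 86666291 to 86670571, minus strand) encodes the precursor of C-type natriuretic peptide and changed most of the 10. In experiment 1 it stood at 13.1, 19.0 and 22.6 CPM in WT, at 8.51, 8.29 and 6.24 in Het and at 4.97, 4.03 and 5.10 in KO. The groups formed a descending order from WT through Het to KO with no overlap between neighbours. KO was lower than WT with a log2 fold change of -1.95 ± 0.23 (adjusted p = 0.0025), which is 3.87-fold lower as fitted. The neighbours in that order were not called: Het against WT gave -1.25 ± 0.23 (adjusted p = 0.14; DESeq2 0.00049) and KO against Het -0.71 ± 0.23 (adjusted p = 0.065; DESeq2 0.039).

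In experiment 2 Nppc was at 1.07, 1.41, 1.64 and 1.44 CPM in KO and at 7.78, 8.61, 6.56 and 7.38 in the rescue. The mean rose from 1.39 ± 0.237 to 7.58 ± 0.854 CPM (SD, n = 4 each), with a fitted log2 fold change of 2.44 ± 0.18 (adjusted p = 3e-05), or 5.43-fold. In experiment 3 it was at 1.51, 1.21, 1.08 and 0.931 CPM in the libraries labelled KO. At DE the libraries held 2.87, 4.88, 9.23 and 10.3, those of PE 14.6, 4.06, 5.65 and 3.10, and those of E 4.03, 5.92, 5.49 and 3.98. All 12 cycling-stage libraries exceeded all 4 labelled KO, and the stages overlapped each other, with PE replicate 1 the highest. Log2 fold changes were 2.51 ± 0.49, 2.52 ± 0.49 and 2.03 ± 0.49 (adjusted p = 0.0035, 0.0025 and 0.011). Without E replicate 3 the last was 1.999 (adjusted p = 0.021). The mean log2(CPM + 1) of the 16 granulosa markers was 7.30 to 7.71 in WT and 6.98 to 7.18 in KO of experiment 1. It was 6.72 to 6.81 in KO of experiment 2 and 7.21 to 7.57 in the rescue. In experiment 3 it was 6.56 to 6.71 in the libraries labelled KO and 6.33 to 7.50 over the 12 cycling-stage libraries. Its part in the Nppc values was not tested.

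Npr2 (chromosome 4, 43631935 to 43651244, plus strand), which encodes the receptor of that peptide, had a narrower span of group means, 2.17 times. It was at 122.8, 138 and 190.0 CPM in WT, 101, 114 and 90.0 in Het and 176, 185 and 175 in KO. KO exceeded Het (log2 fold change 0.82 ± 0.16, adjusted p = 0.011) and overlapped WT, whose replicate 3 was the highest of all 9 libraries (0.25 ± 0.16, adjusted p = 0.37). In experiment 2 the KO libraries at 160.0, 154, 153 and 174 CPM lay above the rescue libraries at 126, 109, 103 and 99.9, and the rescue fell with a log2 fold change of -0.55 ± 0.08 (adjusted p = 0.00093). In experiment 3 Npr2 was at 119, 122, 122.8 and 120.4 CPM in the libraries labelled KO. The DE libraries held 86.1, 87.2, 118 and 104, the PE libraries 126, 70.001, 115 and 94.1, and the E libraries 73.6, 81.5, 87.3 and 86.5. The E libraries alone passed the test (-0.56 ± 0.15, adjusted p = 0.019), a call lost without E replicate 1 (0.065), KO replicate 1 (0.053) or KO replicate 4 (0.056), and DE and PE gave adjusted p of 0.16 and 0.20.

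Set against its receptor, the ligand transcript differed as follows. The log2 ratio of Nppc to Npr2 fell by 2.09 from WT to KO in experiment 1 (exact permutation test, two-sided, p = 0.1, the smallest that 3 against 3 can give). It was higher by 2.65 in the rescue than in KO, and by 2.28, 2.19 and 2.22 at DE, PE and E than in the libraries labelled KO. For the rescue and for each of the 3 stages the exact permutation p was 0.029 and the adjusted p 0.12.

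**Figure D4:**
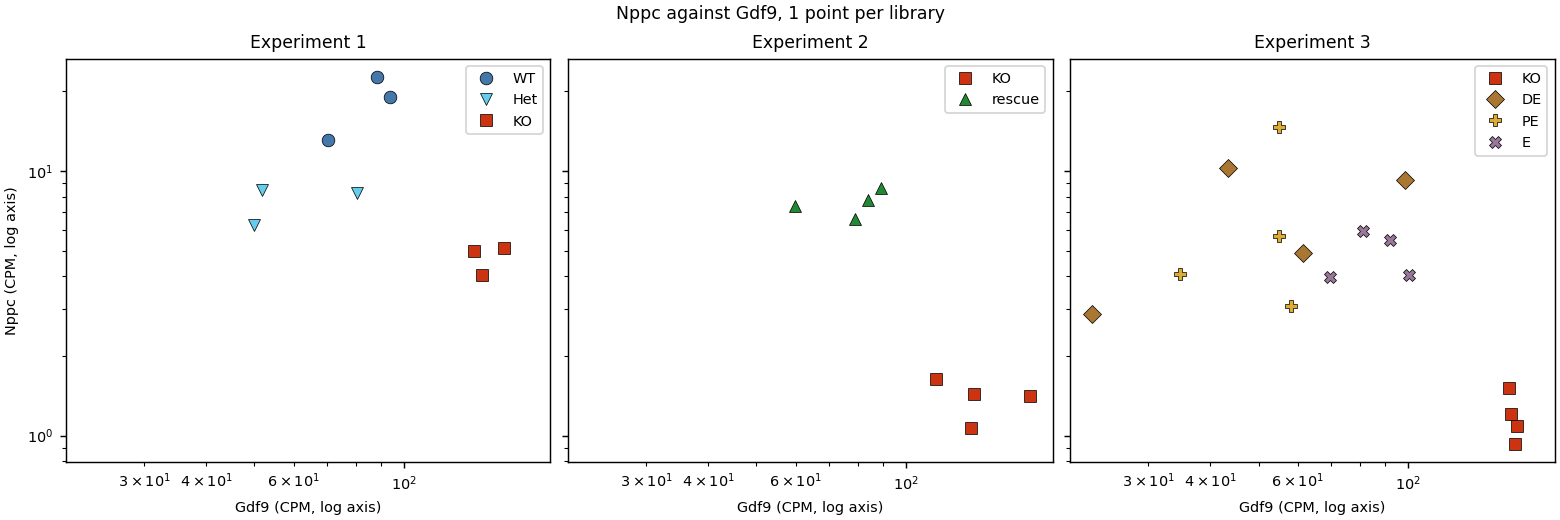
Nppc against Gdf9 (both in CPM, log axes), 1 point per library, in each experiment. The libraries labelled KO lie at the lower right in all 3 panels, with Gdf9 at 115 to 178 CPM and Nppc at 0.931 to 5.10 CPM.

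Pde3a (chromosome 6, 141249269 to 141507448, plus strand) encodes the oocyte phosphodiesterase that cyclic GMP inhibits, and smooth muscle and other tissues express it too. It was at 33.8, 31.8 and 34.6 CPM in WT, 28.6, 33.02 and 33.9 in Het and 26.8, 18.4 and 31.96 in KO. These overlapped, with KO replicate 2 the lowest (KO against WT -0.38 ± 0.18, adjusted p = 0.23). In experiment 2 it was at 28.0, 31.2, 27.7 and 30.6 CPM in KO and 34.6, 36.2, 36.7 and 30.0 in the rescue (0.23 ± 0.08, adjusted p = 0.052; DESeq2 0.039). Pde3a in experiment 3 was at 32.3, 33.7, 34.3 and 39.3 CPM in the libraries labelled KO. Libraries of DE held 54.6, 47.9, 39.7 and 64.3, the PE libraries 45.4, 50.7, 44.3 and 44.6, and the E libraries 39.8, 33.6, 53.3 and 50.8. DE and PE libraries all lay above those labelled KO, and DE passed the test (0.56 ± 0.15, adjusted p = 0.018), a call lost without DE replicate 4 (0.056). PE gave 0.41 ± 0.15 (adjusted p = 0.052).

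The log2 ratio of Pde3a to the oocyte markers was higher by 1.08 in the rescue and by 2.28, 2.06 and 1.28 at DE, PE and E than in KO. Pde3a itself had log2 fold changes of 0.23, 0.56, 0.41 and 0.35 there. Most of each difference in the ratio therefore came from lower oocyte markers. Over the 33 libraries Pde3a and Gdf9 had r = -0.66 after removing experiment means and -0.24 after removing group means. The 9 smooth muscle markers summed to 1435 to 2794 CPM in the libraries labelled KO of experiment 3, to 2428 to 6787 at DE, 3288 to 5393 at PE and 1494 to 3959 at E. They included 6 called higher at DE and 6 at PE, and oviduct markers included 9 and 10, beside 13.5% and 17.5% of all genes. Their part in the Pde3a values was not tested.

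Gpr3 (chromosome 4, 133209340 to 133212536, minus strand) encodes the receptor that keeps cyclic AMP high in the oocyte, and its counts were the lowest of the 10. In experiment 1 it was at 1.57, 1.61 and 1.48 CPM in WT, 0.979, 1.10 and 1.11 in Het and 3.03, 2.20 and 3.13 in KO, 3 bands without overlap. KO exceeded Het (log2 fold change 1.39 ± 0.25, adjusted p = 0.0078), and KO against WT was 0.84 ± 0.25 (adjusted p = 0.072). In experiment 2 it was at 1.17, 2.65, 1.30 and 1.82 CPM in KO and at 1.77, 0.758, 1.58 and 1.11 in the rescue, with overlap (adjusted p = 0.40). Gpr3 in experiment 3 was at 1.81, 1.64, 2.92 and 1.77 CPM in the libraries labelled KO. Those of DE held 0.493, 0.923, 2.10 and 0.621, the PE libraries 0.980, 0.602, 0.737 and 0.677, and the E libraries 2.02, 0.764, 1.18 and 1.57. PE was lower without overlap (-1.43 ± 0.44, adjusted p = 0.024), a call lost without KO replicate 3 (0.074) or PE replicate 2, 3 or 4 (0.055 to 0.058). DE gave -0.96 ± 0.43 (adjusted p = 0.11), and without DE replicate 3, the library low in oviduct markers, adjusted p was 0.01.

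Other genes of cyclic nucleotide signalling and meiotic arrest numbered 19 tested. Of these 3 were higher and 3 lower in KO than WT (4.53% and 3.34% of all genes), and 5 were higher and 7 lower in the rescue than KO (15.8% and 16.2%). At DE 1 was higher and 4 lower (13.5% and 11.6%), at PE 2 and 5 (17.5% and 16.3%), and at E 3 and 3 (8.98% each). Pde1a, a phosphodiesterase regulated by calmodulin, was lower in KO than WT (log2 fold change -1.66 ± 0.19, adjusted p = 0.0021) and higher in the rescue than KO (1.88 ± 0.17, adjusted p = 0.00011), at DE (1.02, adjusted p = 0.0053), at PE (1.14, adjusted p = 0.0022) and at E (1.55, adjusted p = 0.00032). Npr1, the receptor for atrial natriuretic peptide, did the reverse: it was higher in KO than WT (0.69 ± 0.11, adjusted p = 0.0094) and lower in the rescue (-1.12 ± 0.07, adjusted p = 1.3e-05) and at DE, PE and E (-1.38, -1.26 and -1.26). Wee2, an oocyte kinase that holds the meiotic arrest, rose in KO (0.76 ± 0.16, adjusted p = 0.024) and fell at the 3 stages (-1.72, -1.58 and -1.12, adjusted p = 0.0022, 0.0026 and 0.021).

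Gja1 (chromosome 10, 56377330 to 56402513, plus strand) encodes connexin 43, the connexin between granulosa cells. It was at 2622, 2432 and 2737 CPM in WT, 1349, 1836 and 2473 in Het and 2243, 2265 and 1976 in KO. KO lay below WT without overlap, by a log2 fold change that did not pass the test (-0.26 ± 0.20, adjusted p = 0.44). In experiment 2 the KO libraries at 1806, 1836, 1923 and 1857 CPM lay below the rescue libraries at 2475, 2230, 2503 and 2944, and the rescue rose by a log2 fold change of 0.45 ± 0.08 (adjusted p = 0.0027). Experiment 3 had Gja1 at 1930, 1799, 1695 and 1902 CPM in the libraries labelled KO. At DE the libraries held 1151, 1560, 2438 and 1613, the PE libraries 2206, 981, 1646 and 1061, and the E libraries 1649, 1573, 1449 and 1421. DE and PE spread to both sides of the KO level, E lay below it, and no stage passed the test (adjusted p = 0.76 at DE, 0.33 at PE and 0.46 at E).

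Gja4 (chromosome 4, 127311421 to 127314039, minus strand) encodes connexin 37, which the oocyte contributes to its junctions with granulosa cells and which endothelium also expresses. It was at 22.1, 25.2 and 22.4 CPM in WT, 17.0, 25.6 and 25.2 in Het and 25.6, 31.1 and 26.6 in KO. KO lay just above WT (0.26 ± 0.17, adjusted p = 0.37). In experiment 2 the KO values of 17.0, 23.1, 21.2 and 22.0 overlapped the rescue values of 16.9, 19.0, 20.2 and 19.4 (adjusted p = 0.33). Experiment 3 had Gja4 at 21.9, 24.8, 22.5 and 25.5 CPM in the libraries labelled KO. The DE libraries held 14.4, 17.0, 20.9 and 18.6, the PE libraries 17.1, 12.5, 18.8 and 17.5, and the E libraries 24.1, 19.8, 17.7 and 21.3. DE and PE lay below KO without overlap, with log2 fold changes of -0.42 ± 0.14 (adjusted p = 0.044) and -0.52 ± 0.14 (adjusted p = 0.014). The DE call was lost in 11 of 15 alternatives, with adjusted p up to 0.17, and the PE call without KO replicate 4 (0.053). Of 12 endothelial markers, 8 were higher and 0 lower at DE (13.5% and 11.6% of all genes), and 4 were higher and 1 lower at PE (17.5% and 16.3%), and their part in the Gja4 values was not tested.

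The ratio of Gja1 to Gja4 was higher by 0.58 on the log2 scale in the rescue than in KO (exact permutation test, two-sided, p = 0.029, adjusted p = 0.12). Of 9 other junction genes tested in experiment 1, 0 were higher and 1 lower in KO than WT (4.53% and 3.34% of all genes), namely Ctnna1, the alpha catenin that ties cadherins to actin (-0.37 ± 0.10, adjusted p = 0.047). Of 8 in experiment 2, 2 were higher and 1 lower in the rescue (15.8% and 16.2% of all genes), with Ctnna1 at 0.42 ± 0.05 (adjusted p = 0.00023) and Gja5, a connexin of blood vessels, at 1.27 ± 0.27 (adjusted p = 0.0069). At DE, PE and E, 3, 4 and 2 of 9 were higher, beside 13.5%, 17.5% and 8.98% of all genes, and 0, 1 and 0 lower, beside 11.6%, 16.3% and 8.98%. Cdh1, an epithelial cadherin, was higher at DE and PE (2.71 ± 0.83 and 2.80 ± 0.84, adjusted p = 0.03 and 0.021), where oviduct markers were also high, and its part there was not tested.

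The network by which luteinizing hormone ends arrest, EGF-like ligands and cumulus expansion genes, had 5 of 11 higher and 0 lower in KO than WT, beside 4.53% and 3.34% of all genes. Has2, the hyaluronan synthase of the cumulus matrix that GDF9 is known to induce, was higher in KO than WT (log2 fold change 3.39 ± 0.44, adjusted p = 0.0038). It was lower in the rescue than KO (-4.02 ± 0.23, adjusted p = 9.1e-06) and at DE, PE and E (-2.08, -3.26 and -3.37). Ptgs2, the prostaglandin synthase of that process, was 2.18 ± 0.47 higher in KO than WT (adjusted p = 0.026) and -2.90 ± 0.32 in the rescue (adjusted p = 0.00023). In the rescue 2 of 11 were higher and 5 lower, beside 15.8% and 16.2% of all genes. Against the libraries labelled KO, DE and PE each had 2 of 12 higher and 2 lower, beside 13.5% and 11.6% of all genes at DE and 17.5% and 16.3% at PE. E had 1 higher and 3 lower, beside 8.98% in each direction.

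**Figure D5:**
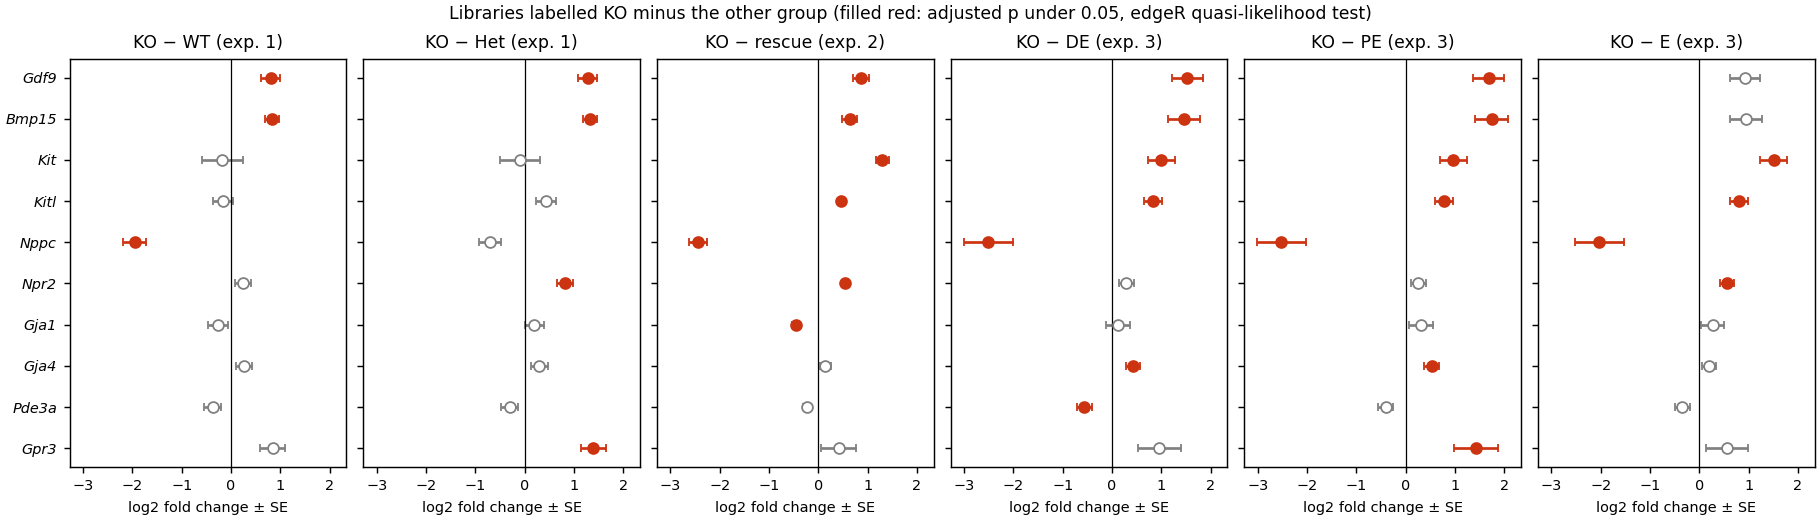
Log2 fold change ± SE of the libraries labelled KO minus the other group for each gene, filled red where adjusted p is under 0.05 (edgeR quasi-likelihood test). Nppc lies at -1.95 against WT and at -2.44 against the rescue, and Gdf9 and Bmp15 lie above 0 in all 6 panels.

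Counted over the set, 3 of the 10 genes passed the test between KO and WT in experiment 1 (Gdf9 and Bmp15 higher, Nppc lower), beside 4.53% of all genes tested called higher, 3.34% called lower and 7.87% in either direction. Between Het and WT 0 passed in edgeR, beside 0.0871% of all genes, and DESeq2 called 1, which was Nppc. At an unadjusted p under 0.05 in edgeR there were 6. The share of all genes at that unadjusted threshold is not given here, so this count shows no excess. Between KO and Het 4 passed, all higher in KO (Gdf9, Bmp15, Npr2 and Gpr3), beside 9.1% of all genes higher, 7.9% lower and 17.0% in either direction. Between rescue and KO 7 passed, 2 higher (Nppc and Gja1) and 5 lower (Gdf9, Bmp15, Kit, Kitl and Npr2), beside 15.8% of all genes higher, 16.2% lower and 31.9% in either direction. At DE, 2 were higher (Nppc and Pde3a) and 5 lower (Gdf9, Bmp15, Kit, Kitl and Gja4) than in the libraries labelled KO, beside 13.5% higher, 11.6% lower and 25.1% in either direction. At PE, 1 was higher (Nppc) and 6 lower (the same 5 and Gpr3), beside 17.5% higher, 16.3% lower and 33.8% in either direction. At E 1 was higher (Nppc) and 3 lower (Kit, Kitl and Npr2), beside 8.98% in each direction and 18.0% in either.

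Groups that did not overlap numbered 6 of 10 genes for KO and WT, beside 36.1% of genes with a mean of at least 1 CPM. They numbered 5 for Het and WT (15.5%), 5 for KO and Het (38.6%) and 7 for rescue and KO (35.9%). For DE, PE and E against KO they numbered 8 (26.0%), 8 (42.3%) and 7 (30.7%).

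Between the stages no gene of the set was called. In edgeR 0 of 10 passed for PE against DE, E against PE and DE against E, beside 0.0% of 16944 genes in each, and DESeq2 also called 0 of 10 in each. The numbers at an unadjusted p under 0.05 were 0, 3 and 0, and the totals over all genes at that threshold are given with the alternatives below. Gdf9 and Bmp15 did not overlap between E and PE, being 1.69-fold and 1.75-fold higher at E as fitted, while 8.98% of genes with a mean of at least 1 CPM did not overlap there. For PE against DE and DE against E 0 of the 10 genes stood apart without overlap, beside 0.873% and 2.94%. Without DE replicate 3 and E replicate 3, Gdf9 and Bmp15 were lower at DE than at E (log2 fold changes -0.97 and -1.01, adjusted p = 0.03 and 0.016) and Bmp15 was higher at E than at PE (0.78, adjusted p = 0.04). That choice leaves all DE and PE libraries rich in oviduct markers and all E libraries poor in them, so stage and oviduct content cannot be told apart in it.

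Likeness over the 33 libraries was measured by Pearson's r of log2(CPM + 1) after removing the mean of each experiment, among 13672 genes. It is a description, since libraries of a group share their condition and genes share depth. Gdf9 was most like Khdc1b, Zp3 and Nlrp14 (r = 0.993, 0.991 and 0.991), and Bmp15 was most like Nlrp4a, Trim75 and Nlrp14 (0.985, 0.978 and 0.977). Nppc was most like Inhba, Cyp19a1 and Grem1 (0.918, 0.917 and 0.903), of which Inhba encodes an activin and inhibin subunit and Cyp19a1 aromatase. Gpr3 was most like Tfap2e, Sall4 and Bub1b (0.865, 0.860 and 0.858), and Gja4 like Tex14, Gbx2 and Zfp57 (0.831, 0.818 and 0.814). Kit was most like Fabp3, Serpina5 and Jcad (0.840, 0.822 and 0.811), and Kitl like Asph, Jcad and Tmem164 (0.850, 0.847 and 0.847), so Jcad stood on both lists. Npr2 was most like Zbtb16, Rtl4 and Prpf19 (0.881, 0.877 and 0.876), Gja1 like Ptp4a1, Tmed7 and Angpt1 (0.821, 0.820 and 0.811), and Pde3a like Lmod1, St8sia4 and Prdm1 (0.832, 0.83 and 0.823). Without removing the experiment means, 7 of these 30 names were the same.

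Within the set, Gdf9 and Bmp15 had r = 0.98 over the libraries and 0.92 after removing group means. Gpr3 had r = 0.82 with Gdf9 and 0.84 with Bmp15 over the libraries, and 0.58 and 0.64 within groups. Nppc and Gdf9 had r = -0.55 over the libraries and 0.43 within groups. Nppc and Npr2 had r = -0.30 over the libraries and 0.66 within groups.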

How the data were processed

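Ovary libraries were grouped by the genotype and stage labels. The authors deposited 1 table of estimated counts per gene (expected counts). The submitters' processing notes name Salmon, DESeq2 and GRCm38, without versions, and no annotation is named in the sources used here. The labels' protocols describe poly(A) selection and a KAPA kit for the stage experiment. Counts were rounded, and identifiers were matched without version to GENCODE on GRCm38 (54094 of 54347). Each experiment was fitted apart in edgeR 4.0.16 (R 4.3.3) with TMM scaling, filterByExpr by group, robust glmQLFit and glmQLFTest, and Benjamini-Hochberg adjustment over all genes at 0.05. All 10 genes passed the filter in each experiment. In experiment 3 Gpr3 reached the cutoff in 4 libraries labelled KO, 3 of E, 2 of DE and 1 of PE. CPM values use TMM library sizes, ratios log2(CPM + 0.5). The procedure was tested on simulated data. Libraries of a group all differed by more than sampling noise (chi-square 5.65 to 73.6 per degree of freedom). The rescue libraries fell into pairs: replicates 1 and 2 differed by 9.09 and replicates 3 and 4 by 6.15. Across these pairs the values were 53.0 to 71.7. The labels do not say what the libraries of a pair share, and the tests took the rescue libraries as independent. The members and lists were chosen with earlier results of these data known. All 10 members are named, with up to 4 genes of the smallest p from each pathway list and the 3 most alike genes of each member. Alternatives were DESeq2 1.42.0, scaling by median of ratios, either no filter or a mean of at least 1 CPM, only the groups compared, a replicate block, each replicate left out, and experiment 3 without DE replicate 3 and E replicate 3.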

Additional observations from a re-analysis of the deposited data

Results flagged for a closer look

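In groups of 4 libraries, a library was singled out where its gap to the nearest other, divided by the range of the group, was above the critical value of Dixon's test. Chance alone gives about 1 in 20 groups, and 5 of 60 were singled out. Kit was lowest in rescue replicate 4 at 59.8 CPM, with the others at 78.4 to 79.8. Kit was highest in E replicate 1 at 82.1 CPM, with the others at 47.7 to 52.1. Gpr3 was highest in replicate 3 of the libraries labelled KO in experiment 3 at 2.92 CPM, with the others at 1.64 to 1.81. PE replicate 2 was the lowest of its stage for Gdf9 at 34.8 CPM, with the others at 55.0 to 58.04, and the highest for Pde3a at 50.7 CPM, with the others at 44.3 to 45.4.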

How the results depend on the processing

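The Nppc calls (KO against WT, rescue against KO and each stage against KO) passed the threshold under every alternative run, and calls that did not hold are given beside their gene. DESeq2 called 2419 genes for KO against WT (edgeR 1355), 341 for Het against WT (15), 344 for E against PE (0), 10 for DE against E (0), and 134 and 170 for the differences between experiments 2 and 1 and between 3 and 1 (28 and 2), with 1 of the 10 genes for Het against WT and for the last. At an unadjusted p under 0.05 edgeR had 407, 3170 and 1796 genes for PE against DE, E against PE and DE against E. Without a filter the difference between experiments 3 and 1 had 1 gene.

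Same-numbered libraries showed no strong positive pairing: of 9, 4 and 24 pairs in experiments 1, 2 and 3, 1, 1 and 5 had deviations correlated above 0.1. The largest r was 0.24. Negative values were larger in size: between E and DE, r was -0.75 for replicate 3, -0.41 for replicate 1 and -0.42 for replicate 2. Libraries with different numbers were not compared, so this cannot show whether the numbers mark a shared litter or day. With the number as a block, 7 genes were called for Het against WT, and 15 and 0 for the differences between experiments, and Nppc at PE against DE changed sign to -0.12.

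Leaving out libraries (each in turn, or DE replicate 3 with E replicate 3) gave 456 to 1031 genes for KO against WT with 1 to 2 of the 10 genes, 9 to 14 for Het against WT and 1362 to 2581 for KO against Het. It gave 2422 to 6142 for DE against KO with 4 to 8 of the 10, 1920 to 3546 for E against KO, and 18 to 30 and 0 to 6 for the differences between experiments. E against PE ran from 0 to 2656 with up to 1 of the 10 and DE against E from 0 to 2750 with up to 2, both highest without DE replicate 3 and E replicate 3. Without E replicate 3 alone they had 1847 and 1039. Some uncalled log2 fold changes changed sign when libraries were left out. For Het against WT the range was Kit from -0.35 to 0.26, Gja4 from -0.14 to 0.13 and Pde3a from -0.12 to 0.0040. For KO against Het the range was Kit from -0.36 to 0.21. For KO against WT the range was Kit from -0.44 to 0.16 and Kitl from -0.30 to 0.070. For E against PE the range was Kitl from -0.095 to 0.089, Pde3a from -0.17 to 0.052, Nppc from -0.74 to 0.18 and Gja1 from -0.11 to 0.30. For DE against E the range was Kitl from -0.22 to 0.10 and Gja1 from -0.099 to 0.29. For DE against KO the range was Gja1 from -0.30 to 0.065. For PE against DE the range was Kit from -0.13 to 0.33, Kitl from -0.076 to 0.25, Nppc from -0.66 to 0.28, Npr2 from -0.084 to 0.18, Gdf9 from -0.41 to 0.25, Bmp15 from -0.55 to 0.23, Gja1 from -0.45 to 0.036, Gpr3 from -0.68 to 0.13 and Gja4 from -0.18 to 0.0083. For the difference between experiments 2 and 1 the range was Pde3a from -0.34 to 0.033 and Gdf9 from -0.17 to 0.11. For the difference between experiments 3 and 1 the range was Gpr3 from -0.32 to 0.10, Pde3a from -0.077 to 0.29 and Npr2 from -0.20 to 0.12. The cause was not tested. Of the 10 genes, counting error is largest for Gpr3 and Nppc, at 6 to 64 and 10 to 380 counts per library, and its part in these ranges was not tested.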
